A study of Mus musculus with 24 samples.

Results

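Expression was examined for 8 genes of the YAP and TEAD pathway in cultured mouse adipocyte precursors and in the adipocytes made from them. The genes were taken by name from the 24825 rows of the deposited tables and are Yap1, Wwtr1, Tead1, Ctgf, Cyr61, Ankrd1, Amotl2 and Lats2. All 8 were found once in the tables, and all 8 passed the filter on low values.

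YAP (Yap1) and TAZ (Wwtr1) are paired coactivators that have no DNA-binding domain of their own. In the nucleus they bind TEAD factors such as TEAD1, and TEAD factors bring them to target genes. The Hippo kinase cascade ends in the kinases LATS1 and LATS2, which phosphorylate YAP and TAZ and keep them in the cytoplasm. A stiff matrix, cell spreading and actin tension release them. Ctgf and Cyr61 encode secreted matricellular proteins of the CCN family, Ankrd1 encodes an ankyrin repeat cofactor, and these genes are the common readouts of the pathway. Amotl2, an angiomotin that binds YAP, and Lats2 are themselves targets and act as negative feedback. In adipocyte biology TAZ is known as a coactivator that also binds PPARγ and restrains it. Activity of YAP and TAZ is set largely at the protein level, by phosphorylation and location, which RNA-seq does not measure.

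The cells were the stromal vascular fraction of inguinal white fat from mice in which exon 2 of Nfia lies between loxP sites, immortalised with SV40 large T antigen. NFIA belongs to the nuclear factor I (NFI) family of DNA-binding transcription factors. All 4 cultures derive from cells with the floxed alleles and large T. The ctrl cells received an empty retrovirus, and the Cre cells a retrovirus for Cre recombinase, which removes the exon between the loxP sites. In Cre + NFIA cells a second retrovirus brought back the full-length protein with a FLAG tag. In Cre + NFIA Δpro#3 cells (Δpro#3 from here) the protein brought back was tagged likewise. It lacks only the last part, called pro#3, of its C-terminal, proline-rich domain. The transgenes were driven from retroviral vectors and not from the Nfia locus. RNA was taken at day 0, before induction, and at day 7 of differentiation with a cocktail that included rosiglitazone, insulin, dexamethasone and T3, in 3 libraries for each of the 8 groups. Whether the replicates were separate cultures is not stated, so p-values measure the spread between these libraries, which may be technical.

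FPKM divides a gene's reads by its length and by the library total. Library totals were 7732829 to 14622189 reads, and the 8 genes had between 158 and 6643 reads in any library. Nfia itself, counted over the whole gene, was at 6.47 ± 0.264 FPKM (SD, n = 3) in ctrl and 6.21 ± 0.773 in the libraries labelled Cre at day 0, and at 9.55 ± 0.355 and 10.1 ± 0.588 at day 7. The gene-level value includes exons outside the deleted one, so it does not check the Cre label. The paper reports efficient recombination by PCR of genomic DNA. It also reports that NFIA mRNA and protein were nearly absent in Cre-expressing cells. Transgene reads raise it in both rescue cultures, to 72.4 ± 2.63 FPKM for full-length and 60.7 ± 1.01 for Δpro#3 at day 0, and to 89.99 ± 6.68 and 101.9 ± 8.44 at day 7. At day 7 the summed FPKM of 10 adipocyte markers was 22229.5 to 25738 in ctrl, 4446 to 9527 in Cre, 21183 to 21374 in Cre + NFIA and 851 to 2158 in Δpro#3. The summed FPKM of 8 precursor markers was 903 to 988, 1886 to 2165, 814 to 911 and 2059 to 2428 in the same order. Of other cell types, the endothelial gene Tie1 and the macrophage gene Adgre1 had no read in any library, and Cdh5, Emcn, Ptprc, Itgam, Msln and Upk3b had at most 3. Pecam1, Wt1 and Lrrn4 had at most 19, 17 and 14 reads. Tek (7.34 FPKM at most), Kdr (3.73), Csf1r (3.64), Cd68 (8.23) and Krt19 (8.56) of the same lists were detected. Against Cre at day 0, Kdr was higher on the log2(FPKM + 1) scale with NFIA (1.18) and with Δpro#3 (1.09). Krt19 was higher with NFIA (1.51) and Csf1r with Δpro#3 (0.997). Tek was lower with Δpro#3 (-1.01) and did not pass with NFIA (0.14). Against Cre at day 7, Kdr was higher with Δpro#3 (1.37) and with NFIA (0.34), and Tek was lower (-0.37 and -0.74). The part of these genes in the results was not tested. Summed FPKM of 6 mural markers at day 7 was 59.7 to 63.5 in ctrl, 32.7 to 47.4 in Cre, 65.7 to 71.5 in Cre + NFIA and 18.0 to 25.5 in Δpro#3. Mcam averaged 46.5, 20.97, 57.8 and 5.21 FPKM in the same order and Notch3 9.79, 16.03, 6.80 and 14.5, so that Mcam was most of the sum in ctrl and Cre + NFIA and Notch3 most of it in Δpro#3. From ctrl to Cre, Mcam was lower and Notch3 higher (-1.16 and 0.66 on the log2 scale), and the part of these genes in the results was not tested. Myh11 and Rgs5 reached at most 3.03 and 0.746.

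On mm9 (NCBIM37, GENCODE vM1) Yap1 lies at chr9:7931999-8004596 and Amotl2 at chr9:102619002-102635748. Wwtr1 lies at chr3:57259571-57379832 and Cyr61 at chr3:145309935-145312949. Tead1 lies at chr7:119822832-120050319, Ctgf at chr10:24315248-24318489, Ankrd1 at chr19:36186455-36194334 and Lats2 at chr14:58260914-58377225.

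TEAD factors recognise the core GGAATG, which reads CATTCC on the other strand, and NFI factors recognise palindromes of which TTGGCA, or on the opposite strand TGCCAA, is a half-site. RefSeq (GRCm38.p6) gave upstream sequence for 6 of the 8 genes, all but Ctgf and Tead1. Both strands of the 250 bases before each start site were searched. The TEAD core was present before 5 of the 6 genes and the NFI half-site before 2, Cyr61 and Ankrd1. Over all 32851 windows of that length the TEAD core was in 12.6% and the NFI half-site in 12.3%. The 3 target genes with a core are shown, with both motifs in capitals; no motif overlapped another. Cyr61 lies on the minus strand (chr3:145649986-145650235), Ankrd1 on the minus strand (chr19:36119845-36120094) and Amotl2 on the plus strand (chr9:102717554-102717803).
Cyr61: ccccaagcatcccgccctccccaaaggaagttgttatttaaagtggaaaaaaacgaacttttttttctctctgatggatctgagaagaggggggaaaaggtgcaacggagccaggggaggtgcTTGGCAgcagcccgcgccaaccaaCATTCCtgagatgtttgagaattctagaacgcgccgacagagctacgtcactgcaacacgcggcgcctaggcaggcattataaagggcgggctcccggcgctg
Ankrd1: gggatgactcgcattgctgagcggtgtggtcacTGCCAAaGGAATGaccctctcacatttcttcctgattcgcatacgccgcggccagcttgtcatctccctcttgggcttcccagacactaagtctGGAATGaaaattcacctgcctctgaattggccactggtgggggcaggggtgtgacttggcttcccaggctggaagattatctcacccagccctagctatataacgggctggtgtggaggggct
Amotl2: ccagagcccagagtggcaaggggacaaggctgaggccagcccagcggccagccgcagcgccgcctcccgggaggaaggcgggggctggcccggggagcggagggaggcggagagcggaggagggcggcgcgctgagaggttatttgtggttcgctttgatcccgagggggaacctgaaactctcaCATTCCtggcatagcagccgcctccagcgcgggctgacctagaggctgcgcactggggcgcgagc
The Cyr61 window holds the half-site at -127 and the TEAD core at -103, counted from the start site to the first base of the motif. In the Ankrd1 window the half-site begins at -217 and the 2 cores at -210 and -123. The Amotl2 core begins at -65. Yap1 has a core at -141, and Wwtr1, which has a pair of listed starts, has 1 core that falls at -136 or -170. Neither listed Lats2 start has a core or a half-site in this window. A match of letters is a description and does not show binding.

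Levels per kilobase placed Cyr61 and Amotl2 above the other 6 genes in all groups except that mean Wwtr1 exceeded Cyr61 in ctrl and Cre + NFIA at day 7. Over all libraries Cyr61 ranged from 37.2 to 250.8 FPKM, Amotl2 from 76.5 to 134.3 and Lats2 from 7.41 to 17.8. Ankrd1, Ctgf and Cyr61 varied most between groups. The highest group mean was 7.01 times the lowest for Ankrd1, 6.22 times for Ctgf and 6.02 times for Cyr61. It was 2.61 times for Tead1, 2.37 for Wwtr1, 2.20 for Lats2, 1.57 for Amotl2 and 1.48 for Yap1.

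**Figure D1:**
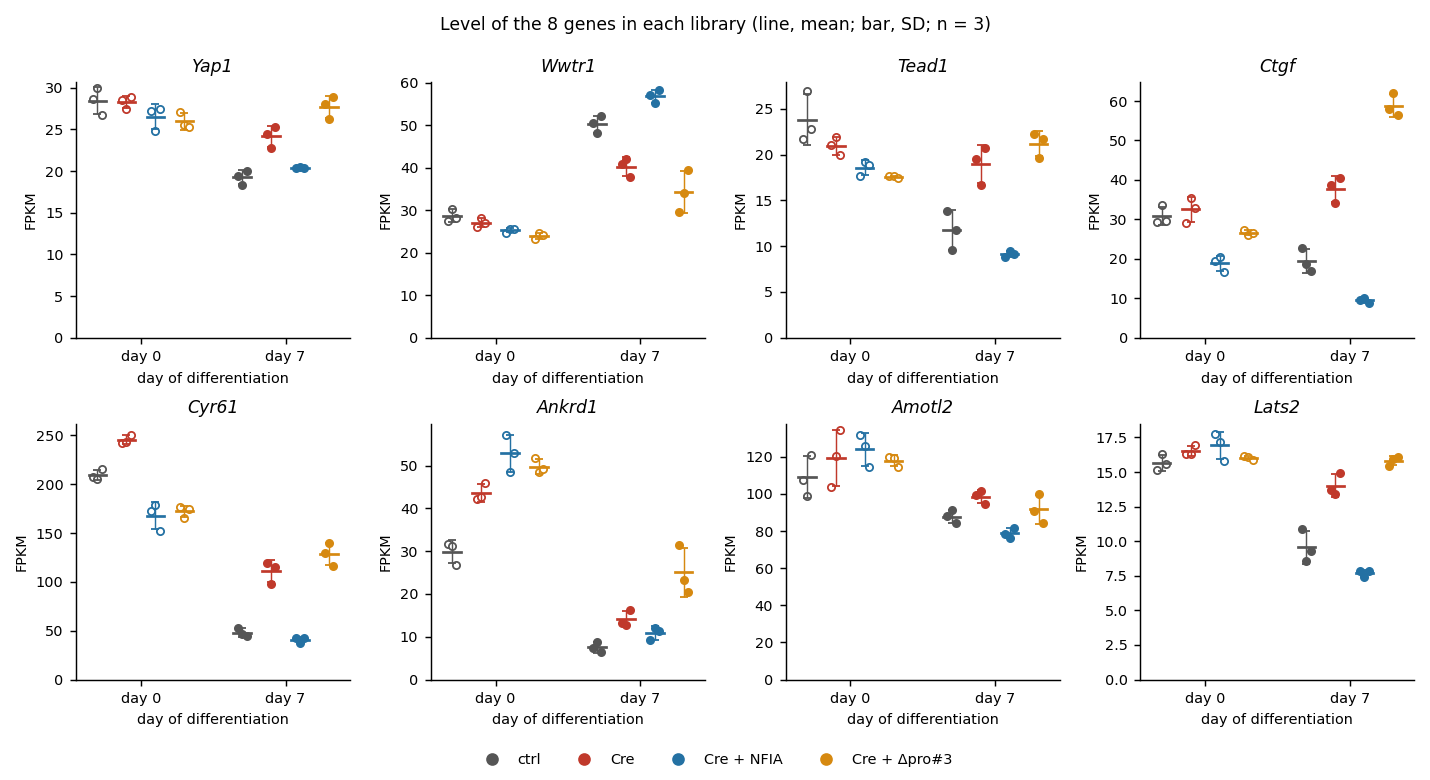
FPKM of each of the 8 genes (vertical axes, from 0) in every library at day 0 (open points) and day 7 (filled points), by culture, with the mean as a line and the SD as a bar (n = 3). At day 7 the Δpro#3 libraries hold the highest Ctgf values of the series (56.4 to 62.1 FPKM) and the Cre + NFIA libraries the lowest (8.83 to 10.1).

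The first question was what happened to these genes as ctrl cells became adipocytes. All 8 differed between day 7 and day 0: 7 fell and Wwtr1 rose. Of all 12640 genes tested, 38.1% were lower and 32.9% were higher at day 7 (limma, Benjamini-Hochberg adjusted p under 0.05). Cyr61 was at 207, 206 and 216 FPKM at day 0 and at 52.9, 46.5 and 44.9 at day 7 in the ctrl libraries. Ankrd1 was at 31.7, 31.2 and 26.7 FPKM at day 0 and at 7.47, 8.80 and 6.34 at day 7. The 2 time points did not overlap for either gene, and these 2 targets fell by more than 3-fold, as 2.86% of all genes tested did. Cyr61 fell by 2.10 on the log2 scale (SE 0.0807, limma adjusted p = 3.99e-15) and Ankrd1 by 1.86 (SE 0.130, adjusted p = 5.02e-11). Tead1, which encodes a DNA-binding partner, fell by 0.97 (SE 0.0982, adjusted p = 1.7e-08). Its paralogues Tead2 and Tead3 averaged 34.7 and 27.2 FPKM in ctrl at day 0, beside 23.8 for Tead1, and also fell (-0.57 and -1.06). Lats2 fell by 0.66, Ctgf by 0.65, Yap1 by 0.54 and Amotl2 by 0.31. Log2 changes throughout are of FPKM + 1, and in bulk RNA fewer cells of a type and less RNA per cell cannot be told apart.

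The coactivators moved apart. Wwtr1 was at 27.5, 30.4 and 28.2 FPKM in ctrl at day 0 and at 50.5, 48.1 and 52.1 at day 7. Yap1 was at 28.7, 29.98 and 26.8 FPKM at day 0 and at 19.5, 18.3 and 20.02 at day 7. The day 7 values of Wwtr1 all lay above those of day 0 and those of Yap1 all below. Wwtr1 rose by 0.79 (SE 0.0707, limma adjusted p = 2.71e-09) and Yap1 fell by 0.54 (SE 0.0551, adjusted p = 1.96e-08).

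Cells with full-length NFIA went the same ways, gene for gene. All 8 passed: 7 fell and Wwtr1 rose, where 38.3% of all genes were lower and 31.8% higher. Ankrd1 fell by 2.18 (SE 0.130, limma adjusted p = 3.55e-12) and Cyr61 by 2.02 (SE 0.0807, adjusted p = 6.35e-15). These were the 2 falls beyond 3-fold, a size that 3.31% of all genes reached. Wwtr1 rose by 1.14 (SE 0.0707, adjusted p = 6.83e-12), from 25.3 ± 0.496 to 56.8 ± 1.54 FPKM (SD, n = 3), which is the highest Wwtr1 level of the 8 groups. Lats2 fell by 1.04, Tead1 by 0.95, Ctgf by 0.92, Amotl2 by 0.64 and Yap1 by 0.36.

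In Cre cells 6 of the 8 passed, 5 lower and 1 higher, where 21.6% of all genes were lower and 30.0% higher. Ankrd1 fell by 1.57, Cyr61 by 1.14, Amotl2 by 0.27, Lats2 by 0.22 and Yap1 by 0.22, and Wwtr1 rose by 0.56. The Amotl2 call was lost without replicate 3 of Cre at day 0 (adjusted p = 0.0811). Tead1 (-0.14, limma adjusted p = 0.246) and Ctgf (0.21, adjusted p = 0.0762) did not pass. In Δpro#3 cells 6 passed as well, 3 in each direction, where 17.0% of all genes were lower and 24.5% higher. Ankrd1 fell by 0.98, Cyr61 by 0.42 and Amotl2 by 0.36. Ctgf rose by 1.12 (SE 0.0957, limma adjusted p = 7.71e-09), Wwtr1 by 0.49 and Tead1 by 0.25. Ctgf went from 27.2, 26.0 and 26.5 FPKM at day 0 to 58.0, 62.1 and 56.4 at day 7 in these cells, opposite in sign to its fall in ctrl. The Tead1 rise was close to the threshold (adjusted p = 0.0448) and did not pass when any of 5 of the 6 Δpro#3 libraries was left out (adjusted p 0.0864 to 0.135). Nor did this rise pass with median-of-ratios size factors (limma adjusted p = 0.0842) or quantile normalization (adjusted p = 0.0545). Yap1 (0.09) and Lats2 (-0.02) did not pass in Δpro#3 cells, with 95% intervals of -0.02 to 0.21 and -0.16 to 0.12. With quantile normalization the share of calls that were higher went from 58.1% to 44.5% in Cre and from 59.1% to 48.6% in Δpro#3.

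**Figure D2:**
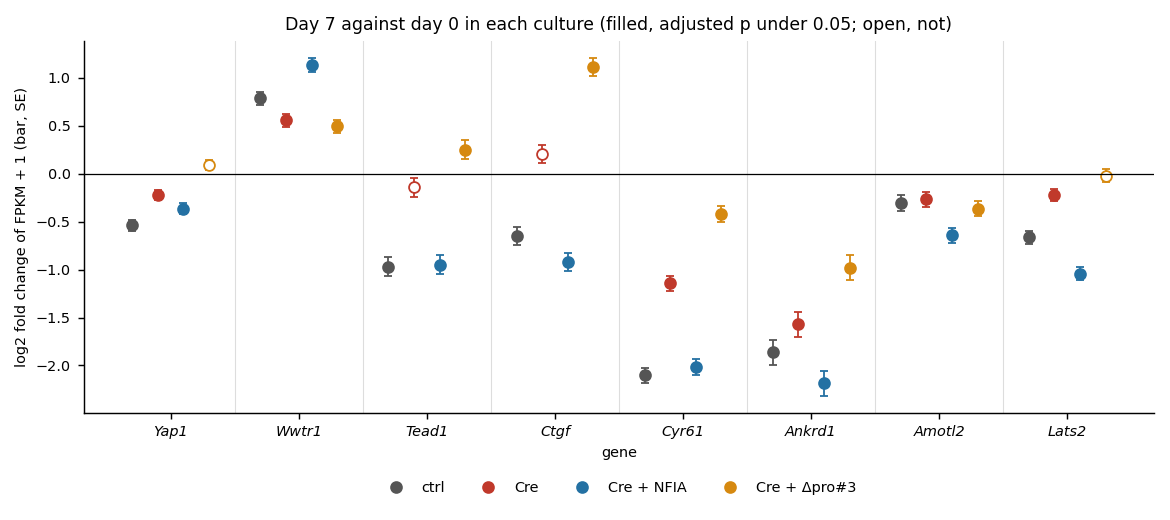
Log2 fold change of FPKM + 1 from day 0 to day 7 (vertical axis, with SE) for each gene (horizontal axis) in each culture, filled where the adjusted p was under 0.05. Cyr61, Ankrd1 and Amotl2 lie below 0 in all 4 cultures and Wwtr1 above 0, whereas Ctgf runs from -0.92 with full-length NFIA to 1.12 with Δpro#3.

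At day 7 the libraries labelled Cre were compared with ctrl. All 8 genes passed, with 7 higher and Wwtr1 lower, where 36.1% of all genes were higher and 22.7% lower. Cyr61 was at 52.9, 46.5 and 44.9 FPKM in ctrl and at 119, 97.9 and 116 in Cre. Ctgf was at 22.7, 18.7 and 16.8 FPKM in ctrl and at 38.6, 34.1 and 40.4 in Cre. Ankrd1 was at 7.47, 8.80 and 6.34 FPKM in ctrl and at 13.3, 12.8 and 16.2 in Cre. In each of these targets every Cre library lay above every ctrl library. Cyr61 was higher by 1.19 (SE 0.0947, limma adjusted p = 1.5e-06), Ctgf by 0.93 (SE 0.0987, adjusted p = 9.82e-06) and Ankrd1 by 0.83 (SE 0.159, adjusted p = 0.00078).

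Tead1 was at 13.9, 9.55 and 11.8 FPKM in ctrl and at 19.6, 16.7 and 20.7 in Cre. Lats2 was at 10.8, 8.54 and 9.26 FPKM in ctrl and at 13.7, 13.4 and 14.9 in Cre. The groups did not overlap for either gene. Tead1 was higher by 0.66 (SE 0.112, limma adjusted p = 0.000333), Lats2 by 0.51 (SE 0.0763, adjusted p = 0.000119) and Yap1 by 0.31 (SE 0.0553, adjusted p = 0.000443). Wwtr1 was at 41.0, 42.04 and 37.8 FPKM in Cre, below every ctrl library, and lower by 0.31 (SE 0.084, adjusted p = 0.00696). Amotl2 was higher by 0.17 (SE 0.062, adjusted p = 0.0373), and it did not pass with median-of-ratios size factors (0.03, adjusted p = 0.764) or when any of 4 of the 6 libraries was left out (adjusted p 0.0668 to 0.127). These size factors moved the median of all genes by -0.112 and the share of calls that were higher from 61.4% to 46.3%. The other 7 genes kept their sign and passed under them. The adipocyte markers were lower with Cre (9 of 9 tested) and 6 of 7 tested precursor markers higher, and their part in these differences was not tested.

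With full-length NFIA in Cre cells the differences at day 7 had the opposite signs. Of the 8 genes 6 were lower and Wwtr1 was higher, where 35.9% of all genes were lower and 27.0% higher. Ctgf was at 9.45, 10.1 and 8.83 FPKM with NFIA against 38.6, 34.1 and 40.4 in Cre. Its mean FPKM was 3.99-fold lower. On the log2 scale Ctgf fell by 1.89 (SE 0.0987, limma adjusted p = 3.13e-08). Cyr61 was at 42.5, 37.2 and 42.6 FPKM with NFIA and fell by 1.42 (SE 0.0947, adjusted p = 1.53e-07). Tead1 was at 8.82, 9.45 and 9.12 FPKM, below each of the 3 Cre libraries, and fell by 0.98 (SE 0.112, adjusted p = 1.16e-05). Lats2 fell by 0.79, Amotl2 by 0.32 and Yap1 by 0.23. Wwtr1 was at 57.1, 55.2 and 58.2 FPKM, above every Cre library, and rose by 0.49 (SE 0.084, adjusted p = 0.0003).

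Ankrd1 was the member that missed the threshold. It was at 9.15, 12.1 and 11.4 FPKM with NFIA and at 13.3, 12.8 and 16.2 in Cre, a difference of -0.35 (SE 0.159, limma adjusted p = 0.0752, 95% interval -0.69 to -0.00064). The groups did not overlap, and with only these 2 groups in the model it passed (adjusted p = 0.0401). The 9 adipocyte markers tested all rose with NFIA, and 6 of 7 precursor markers fell, and their part in these differences was not tested. The share of calls that were higher went from 43.0% to 53.7% with size factors, under which the same 7 genes passed with the same signs.

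With Δpro#3 in place of full-length NFIA the picture at day 7 differed. Against Cre, 3 of the 8 were higher and 0 lower (limma), where 7.70% of all genes were higher and 10.0% lower. Ctgf was at 58.0, 62.1 and 56.4 FPKM and rose by 0.63 (SE 0.0987, limma adjusted p = 0.0014) over Cre. Ankrd1 was at 31.5, 23.2 and 20.54 FPKM and rose by 0.77 (SE 0.159, adjusted p = 0.00632). In both genes every Δpro#3 library lay above every Cre library. Yap1 rose by 0.19 (SE 0.0553, adjusted p = 0.0339), a call lost when any of 4 of the 6 libraries was left out (adjusted p 0.0785 to 0.134). Cyr61 (0.21, 95% interval 0.01 to 0.42), Lats2 (0.16, -0.0033 to 0.33) and Tead1 (0.15, -0.09 to 0.40) did not pass. Wwtr1 was at 29.7, 34.0 and 39.4 FPKM and overlapped Cre, with a difference of -0.23 (adjusted p = 0.0805), and without replicate 3 of Δpro#3 it passed (-0.33, adjusted p = 0.00863). The adipocyte markers were lower than in Cre for 9 of 9, and 1 of 7 precursor markers was higher, and their part was not tested either.

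**Figure D3:**
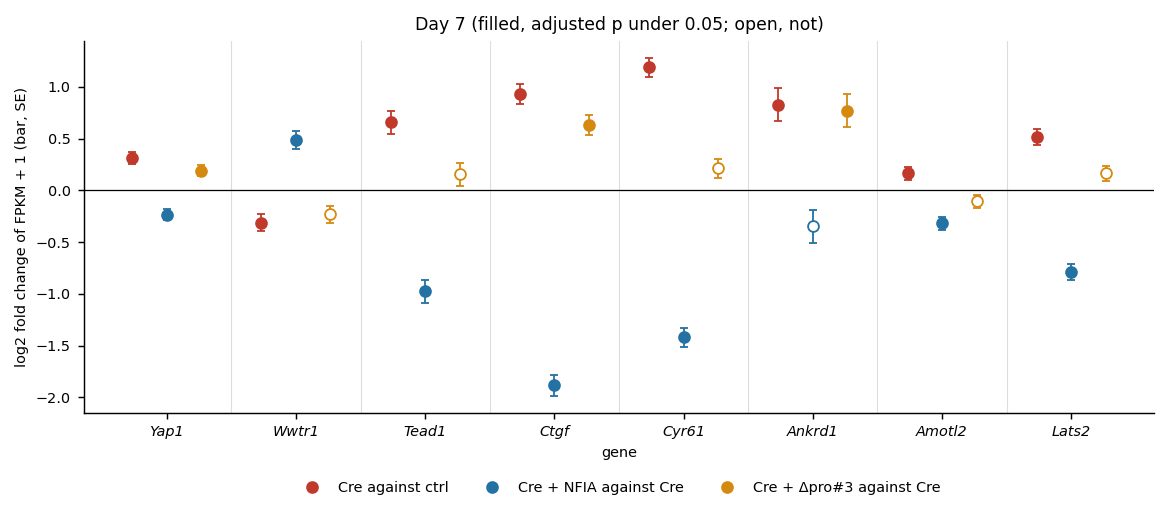
Log2 fold change of FPKM + 1 at day 7 (vertical axis, with SE) for each gene (horizontal axis) in 3 comparisons, filled where the adjusted p was under 0.05. The changes of Cre + NFIA against Cre lie on the other side of 0 from those of Cre against ctrl for each gene, and both comparisons share the Cre libraries.

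The 2 forms of NFIA were set against each other directly. At day 7 all 8 genes differed, with 7 higher with Δpro#3 and Wwtr1 lower, where 40.4% of all genes were higher and 28.9% lower. Ctgf was 6.22-fold higher in mean FPKM with Δpro#3 (log2 2.52, SE 0.0987, limma adjusted p = 2.8e-09) and Cyr61 3.16-fold (log2 1.63, SE 0.0947, adjusted p = 2.83e-08). These 2 passed at 3-fold, as 2.33% of all genes did. Tead1 was higher by 1.13, Ankrd1 by 1.12, Lats2 by 0.95, Yap1 by 0.42 and Amotl2 by 0.21, and Wwtr1 was lower (-0.72, adjusted p = 9.23e-06). Amotl2 did not pass with size factors (0.09, adjusted p = 0.309), which moved the median of all genes by -0.104 in this comparison. Nfia transcript itself, with the transgene, was higher with Δpro#3 by 0.18 at day 7 (limma adjusted p = 0.0439), and the part of this in the differences was not tested.

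Against ctrl, the full-length rescue left 2 of the 8 lower at day 7 and 0 higher (limma), where 9.15% of all genes were lower and 8.81% higher. Ctgf was below ctrl in every library and lower by 0.96 (SE 0.0987, limma adjusted p = 8.07e-05). Lats2 was lower by 0.27 (adjusted p = 0.0284), and this call was lost when any of 5 of the 6 libraries was left out (adjusted p 0.0513 to 0.0974). Ankrd1 differed by 0.48 (adjusted p = 0.0571), Tead1 by -0.32 (adjusted p = 0.0733) and Cyr61 by -0.23 (adjusted p = 0.113). These 3 passed when the spread was estimated over all 24 libraries (adjusted p = 0.0124, 0.0262 and 0.0455). Wwtr1 (0.17, 95% interval -0.01 to 0.36), Amotl2 (-0.15, -0.29 to -0.02) and Yap1 (0.08, -0.04 to 0.20) did not pass.

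The undifferentiated cultures were compared in the same way. At day 0, 1 of the 8, Ankrd1, was higher in Cre than in ctrl and 0 were lower (limma), where 1.63% of all genes were higher and 1.70% lower. Ankrd1 was at 31.7, 31.2 and 26.7 FPKM in ctrl and at 42.3, 42.6 and 46.0 in Cre. It was higher by 0.54 (SE 0.074, limma adjusted p = 0.00449), a call that did not hold with only these 2 groups in the model (adjusted p = 0.0839). Cyr61 was at 207, 206 and 216 FPKM in ctrl and at 242, 243 and 251 in Cre, without overlap, and its difference of 0.23 did not pass (adjusted p = 0.0539). The other 6 genes differed by -0.17 to 0.13. With quantile normalization the share of calls that were higher went from 48.9% to 35.8%.

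With full-length NFIA, Ctgf and Cyr61 were already lower at day 0. Against Cre, 2 of the 8 were lower and 1 higher, where 12.9% of all genes were lower and 14.7% higher. Ctgf was at 29.2, 35.4 and 33.0 FPKM in Cre and at 19.3, 20.4 and 16.7 with NFIA. Cyr61 was at 242, 243 and 251 FPKM in Cre and at 173, 178 and 153 with NFIA. Neither gene had overlapping groups. Ctgf fell by 0.76 (SE 0.0854, limma adjusted p = 8.91e-05) and Cyr61 by 0.55 (SE 0.0556, adjusted p = 4.22e-05). Ankrd1 rose by 0.27 (SE 0.074, adjusted p = 0.0202), to 57.1, 48.6 and 53.0 FPKM, so 2 of the classical targets went down and another went up in the same libraries. The Ankrd1 call was lost when any of 4 of the 6 libraries was left out (adjusted p 0.0568 to 0.0770).

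With Δpro#3 at day 0, 4 of the 8 were lower than in Cre and 0 higher (limma), where 9.02% of all genes were lower and 9.26% higher. Cyr61 was at 176, 165 and 175 FPKM and fell by 0.51 (SE 0.0556, limma adjusted p = 0.000195). Ctgf fell by 0.28 (adjusted p = 0.047), Tead1 by 0.24 (adjusted p = 0.0439) and Wwtr1 by 0.17 (adjusted p = 0.0343), and each of these calls was lost when any of at least 5 of the 6 libraries was left out (adjusted p 0.0501 to 0.150). Between the 2 forms of NFIA 1 of the 8 differed at day 0, where 4.50% of all genes were higher with Δpro#3 and 5.59% lower. Ctgf was higher with Δpro#3 by 0.48 (SE 0.0854, adjusted p = 0.00424), whereas Cyr61 differed by 0.04 with a 95% interval of -0.08 to 0.16. Nfia transcript, with the transgene, was lower with Δpro#3 at day 0 (-0.25, adjusted p = 0.0487), opposite to day 7.

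Against ctrl at day 0, cells with full-length NFIA had 4 of the 8 lower and 1 higher, where 14.3% of all genes were lower and 18.8% higher. Ankrd1 was higher by 0.80 (SE 0.074, limma adjusted p = 2.24e-05). Ctgf fell by 0.69, Tead1 by 0.34, Cyr61 by 0.32 and Wwtr1 by 0.18, the last not without replicate 1 of Cre + NFIA (adjusted p = 0.0627). Of the 9 proliferation genes listed, 8 were higher than in Cre with NFIA at day 0 and 6 with Δpro#3. Of all genes 14.7% and 9.26% were higher in these comparisons. With size factors the proliferation count was 7 in each. The part of the proliferation genes in these differences was not tested.

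Whether a difference between cultures changed with differentiation was tested as an interaction over all 24 libraries. For Cre against ctrl 5 of the 8 interactions were positive and passed and 0 were negative and passed (limma), where 29.7% of all genes had a higher and 19.5% a lower difference at day 7. The largest was Cyr61 at 0.96 (SE 0.114, limma adjusted p = 1.09e-06), followed by Ctgf at 0.86 and Tead1 at 0.83. For Cre + NFIA against Cre 6 interactions were negative and 1, Wwtr1, was positive, where the shares of all genes were 30.1% and 18.8%. Ctgf had the largest, at -1.13 (SE 0.135, adjusted p = 8.31e-07). For Δpro#3 against Cre 4 interactions were positive and 0 negative (limma), where 7.79% of all genes had a higher and 10.4% a lower difference at day 7. The Ankrd1 interaction among them was lost when any of 6 of the 12 libraries was left out (adjusted p 0.0616 to 0.0963). Size factors moved the median of all genes by -0.114 and 0.110 in the first and the second interaction, and the share of positive calls from 60.3% to 46.3% and from 38.5% to 52.0%. Under them Wwtr1 passed as negative in the first (-0.36, adjusted p = 0.0035, against -0.23 and 0.0629 without them), and it also passed without replicate 2 of ctrl at day 0 (adjusted p = 0.0392) or of Cre at day 7 (adjusted p = 0.0485). Amotl2 did not pass under them in the second (-0.25, adjusted p = 0.129). These comparisons share the Cre libraries and are given side by side without a test of their overlap.

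The ratio of Wwtr1 to Yap1 FPKM, a measure chosen after the values were seen, described the shift between the coactivators. At day 0 it was 1.01 ± 0.0459 in ctrl, 0.957 ± 0.0611 in Cre, 0.955 ± 0.0640 with NFIA and 0.923 ± 0.0623 with Δpro#3 (SD, n = 3). At day 7 it was 2.61 ± 0.0157 in ctrl, 1.67 ± 0.174 in Cre, 2.79 ± 0.0835 with NFIA and 1.24 ± 0.159 with Δpro#3. The day 0 libraries all lay between 0.852 and 1.05, and the day 7 libraries in 4 separate ranges. The sum of both transcripts ranged between group means of 49.9 and 77.2 FPKM. The order of the ratio at day 7 was that of the summed adipocyte markers except that ctrl and Cre + NFIA were exchanged. Within ctrl, Cre and Δpro#3 at day 7 the 3 libraries had the same order by ratio and by marker sum, as in Cre, where replicate 3 had the lowest of both (1.495 and 4446) and replicate 2 the highest (1.84 and 9527). In Cre + NFIA they did not, since replicate 2 had the lowest ratio (2.69) and replicate 1 the lowest sum (21183). Fabp4 was most of the marker sum, with a mean of 17544 FPKM in ctrl at day 7. These orders are descriptions, and the part of the adipocyte markers in the ratio was not tested.

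**Figure D4:**
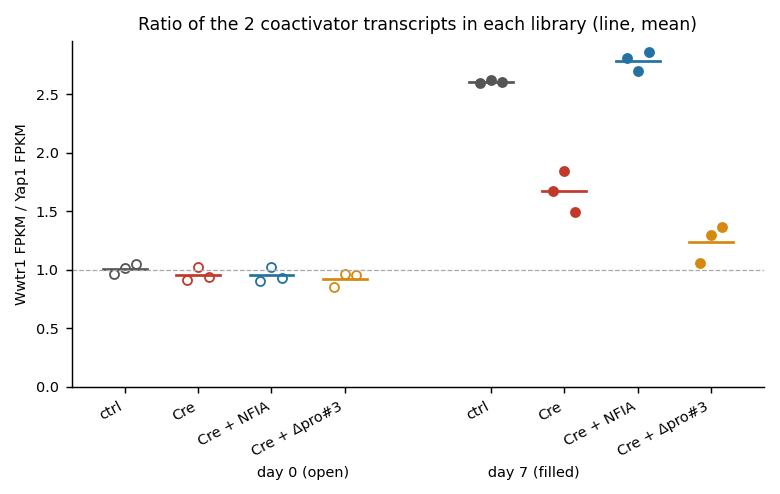
Ratio of Wwtr1 to Yap1 FPKM (vertical axis, from 0; the dashed line marks equal levels) in every library at day 0 (open points) and day 7 (filled points), by culture, with the mean as a line (n = 3). At day 0 every library lies between 0.852 and 1.05, and at day 7 the means run from 1.24 with Δpro#3 to 2.79 with full-length NFIA.

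The order of the 8 group means differed between the genes. Neighbours in each order were compared in the fit over all 24 libraries, which calls some pairs of day 7 that the fit within day 7 did not. Ctgf was lowest in Cre + NFIA at day 7 (9.46 ± 0.630 FPKM) and highest in Δpro#3 at day 7 (58.8 ± 2.92), both apart from their neighbours (limma adjusted p = 2.56e-08 and 5.89e-05). Between them Cre + NFIA at day 0 (18.8) and ctrl at day 7 (19.4) did not differ beyond their spread. For Cyr61 the 4 day 7 groups lay below the 4 day 0 groups, from 40.7 ± 3.09 in Cre + NFIA at day 7 to 245.4 ± 4.63 in Cre at day 0. The Cre and Δpro#3 groups at day 7 (111.0 and 128.6) did not pass. Ankrd1 had the 4 day 7 groups at the bottom, from 7.54 ± 1.23 in ctrl to 25.1 ± 5.69 in Δpro#3, and the Δpro#3 group of day 7 overlapped ctrl of day 0 (29.9). Each step among these 4 day 7 groups passed in this fit, and the step from Δpro#3 at day 7 to ctrl at day 0 did not (limma adjusted p = 0.107). The steps from ctrl to Cre + NFIA and on to Cre did not pass within day 7 (adjusted p = 0.0571 and 0.0752). Wwtr1 ran from 23.9 ± 0.764 FPKM in Δpro#3 at day 0, through the other day 0 groups without a passing step, to 34.3 ± 4.88 in Δpro#3, 40.3 ± 2.19 in Cre, 50.2 ± 2.01 in ctrl and 56.8 ± 1.54 in Cre + NFIA at day 7. Its step from Δpro#3 to Cre passed here (adjusted p = 0.0241) but not within day 7 (adjusted p = 0.0805), and the last step did not pass (adjusted p = 0.0897). Lats2 and Tead1 were lowest in Cre + NFIA at day 7 (7.69 ± 0.246 and 9.13 ± 0.319 FPKM), then in ctrl at day 7 (9.55 ± 1.18 and 11.7 ± 2.16), and above the step from ctrl at day 7 to the next group no neighbouring pair passed for either. Amotl2 rose in small steps from 78.9 ± 2.64 to 124.1 ± 8.72 FPKM, and no neighbouring pair passed. Yap1 passed at a single step, between Cre + NFIA (20.4 ± 0.0785) and Cre (24.2 ± 1.27) at day 7.

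Genes whose 8 group means ran most like each member were ranked by Pearson's r over log2(FPKM + 1) among 9626 genes. Tead1 was closest to Lpar1, a receptor for lysophosphatidic acid (r = 0.997), and then to S1pr2, a receptor for sphingosine 1-phosphate (r = 0.994), and Sh3pxd2b (r = 0.993). Genes among those most like Wwtr1 were Mkln1 (r = 0.997) and Sgms1 (r = 0.995). Cyr61 was closest to Os9, Wdfy1 and Eml3 (each r = 0.997), Ankrd1 to Ap1m1, Tbrg1 and Oas1c (0.994 to 0.992), and Lats2 to Nucb1, B4galt5 and Lrp1 (0.996 to 0.994). Amotl2 was closest to Pcnt, Irf7 and Rabgef1 (0.988 to 0.980), and Yap1 to Rps6kc1, Arsa and Lrrc49 (0.990 to 0.989). Ctgf was closest to Pltp, Sec11a and Csgalnact1 (0.980 to 0.975), the lowest likeness of the 8. The 8 points of each r share libraries and depth with every other gene, so these values are descriptions. Between members, r ran from -0.962 (Wwtr1 and Ankrd1) to 0.950 (Cyr61 and Lats2). Ctgf had r = 0.818 with Tead1, 0.601 with Cyr61 and 0.309 with Ankrd1.

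Other genes of the pathway were counted from lists. Of 17 other genes of a YAP and TAZ target signature, 13 were higher and 1 lower in Cre than in ctrl at day 7, with a median log2 difference of 0.57 beside 0.09 over all genes, of which 36.1% were higher and 22.7% lower. The highest were Myof, a ferlin of membrane repair (1.46), and Fjx1 (1.34), and the lower gene was Gadd45a (-0.37), a stress and growth arrest gene. With full-length NFIA 13 were lower and 1 higher than in Cre (median -0.82, all genes -0.06), where 35.9% of all genes were lower and 27.0% higher. The falls were led by F3, the tissue factor of coagulation (-1.87), and Myof (-1.76). With Δpro#3 3 were higher and 4 lower (median 0.09, all genes 0.02), where 7.70% of all genes were higher and 10.0% lower. Igfbp3 (0.80) and Foxf2 (0.72) were up, and Nt5e (-0.96) and Fjx1 (-0.55) were down. From day 0 to day 7, 12 of the 17 fell and 3 rose in ctrl (all genes, 38.1% and 32.9%). In Δpro#3 3 fell and 8 rose (all genes, 17.0% and 24.5%).

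At day 0 the same 17 genes were divided. With NFIA 5 were higher and 5 lower than in Cre (all genes, 14.7% and 12.9%), and with Δpro#3 2 were higher and 9 lower (all genes, 9.26% and 9.02%). Foxf2, a forkhead factor, was higher by 2.24 with NFIA and by 1.45 with Δpro#3. Igfbp3, an IGF-binding protein, was lower (-2.08 and -1.08). In Cre against ctrl 3 were higher and 1, Rbms3, was lower (-0.54), where 1.63% of all genes were higher and 1.70% lower.

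Among the Hippo kinases and scaffolds 23 of 24 genes were tested. At day 7, 15 were higher and 3 lower in Cre than in ctrl (median 0.31), where 36.1% and 22.7% of all genes were called and their median was 0.09. With full-length NFIA 15 were lower and 5 higher than in Cre (median -0.32), where 35.9% and 27.0% of all genes were called and their median was -0.06. The angiomotin Amot was at 4.68 ± 0.676 FPKM in ctrl, 12.9 ± 1.41 in Cre, 3.15 ± 0.154 with NFIA and 13.9 ± 1.45 with Δpro#3. Its paralogue Amotl1 did not follow it and was higher with NFIA (0.39, limma adjusted p = 4.86e-05) and with Δpro#3 (0.36, adjusted p = 0.00112) than in Cre. The protocadherin Fat4 was higher in Cre (1.21) and lower with NFIA (-1.69). The core kinases differed less. Lats1, the paralogue of Lats2, differed by 0.17 in Cre against ctrl (adjusted p = 0.103) and fell by 0.26 with NFIA (adjusted p = 0.0203). Stk4, the kinase MST1, was lower in Cre (-0.19) and higher with NFIA (0.29). Stk3, the kinase MST2, was higher in Cre (0.28, adjusted p = 0.0232) and did not pass with NFIA (-0.22, adjusted p = 0.0619).

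Of the other TEAD and VGLL genes, which encode TEAD factors and cofactors that compete for them, 4 of 7 passed the filter on low values. Tead4 reached at most 37 reads, Vgll2 at most 2 and Vgll1 had none. Vgll3 was at 15.2 ± 2.91 FPKM in ctrl, 40.2 ± 2.13 in Cre, 10.9 ± 1.01 with NFIA and 53.9 ± 2.37 with Δpro#3 at day 7. It rose by 1.36 in Cre against ctrl (SE 0.109, limma adjusted p = 1.55e-06), fell by 1.79 with NFIA and rose by 0.41 with Δpro#3. Tead3 rose in Cre (0.57) and fell with NFIA (-0.99), like Tead1, whereas Tead2 fell with NFIA (-0.25) and did not pass in Cre (0.08, adjusted p = 0.369). At day 0 all 4 of these genes were lower with NFIA than in Cre, as were 12.9% of all genes.

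The 3 other CCN genes tested were all higher in Cre than in ctrl at day 7, as were 36.1% of all genes. All 3 were lower with NFIA than in Cre, as were 35.9% of all genes. Wisp1 rose by 1.45 and fell by 1.76, and Nov rose by 0.95 and fell by 1.57. With Δpro#3 Nov rose (0.81) and Wisp1 fell (-0.49) against Cre. At day 0 Nov had a large difference between Cre and ctrl, at -1.50 (limma adjusted p = 2.71e-05), opposite in sign to day 7.

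Genes that answer actin tension through SRF and MRTF, and genes that answer TGFβ, share stimuli with YAP and TAZ. The SRF and MRTF list of 18 genes holds targets and also Srf, Mkl1 and Mkl2, which encode SRF and the MRTFs themselves. Of these 18 genes 16 were higher and 0 lower in Cre than in ctrl at day 7 (limma, median 0.61). With NFIA 18 were lower than in Cre (median -1.05), and with Δpro#3 10 were higher (median 0.27). The shares of all genes were 36.1% higher in Cre, 35.9% lower with NFIA and 7.70% higher with Δpro#3, with medians of 0.09, -0.06 and 0.02. The calponin Cnn2 rose by 1.11 and fell by 1.88. Fhl2, a LIM-domain cofactor, rose by 1.36 and fell by 1.88. Of 8 TGFβ targets, of which Col1a1 is also on the precursor list, 6 were higher in Cre (median 0.86) and 6 lower with NFIA (median -0.95), and 2 were higher with Δpro#3 (median 0.15), beside the same shares and medians of all genes. Tgfbi rose by 1.66 and fell by 1.17. With size factors the counts in Cre against ctrl were 12 higher and 1 lower for the signature. They were 15 and 1 for the SRF and MRTF list, and 6 and 1 for TGFβ targets. At day 0 11 of the 18 genes on the SRF and MRTF list were lower with NFIA than in Cre and 8 with Δpro#3. Of all genes 12.9% and 9.02% were lower.

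**Figure D5:**
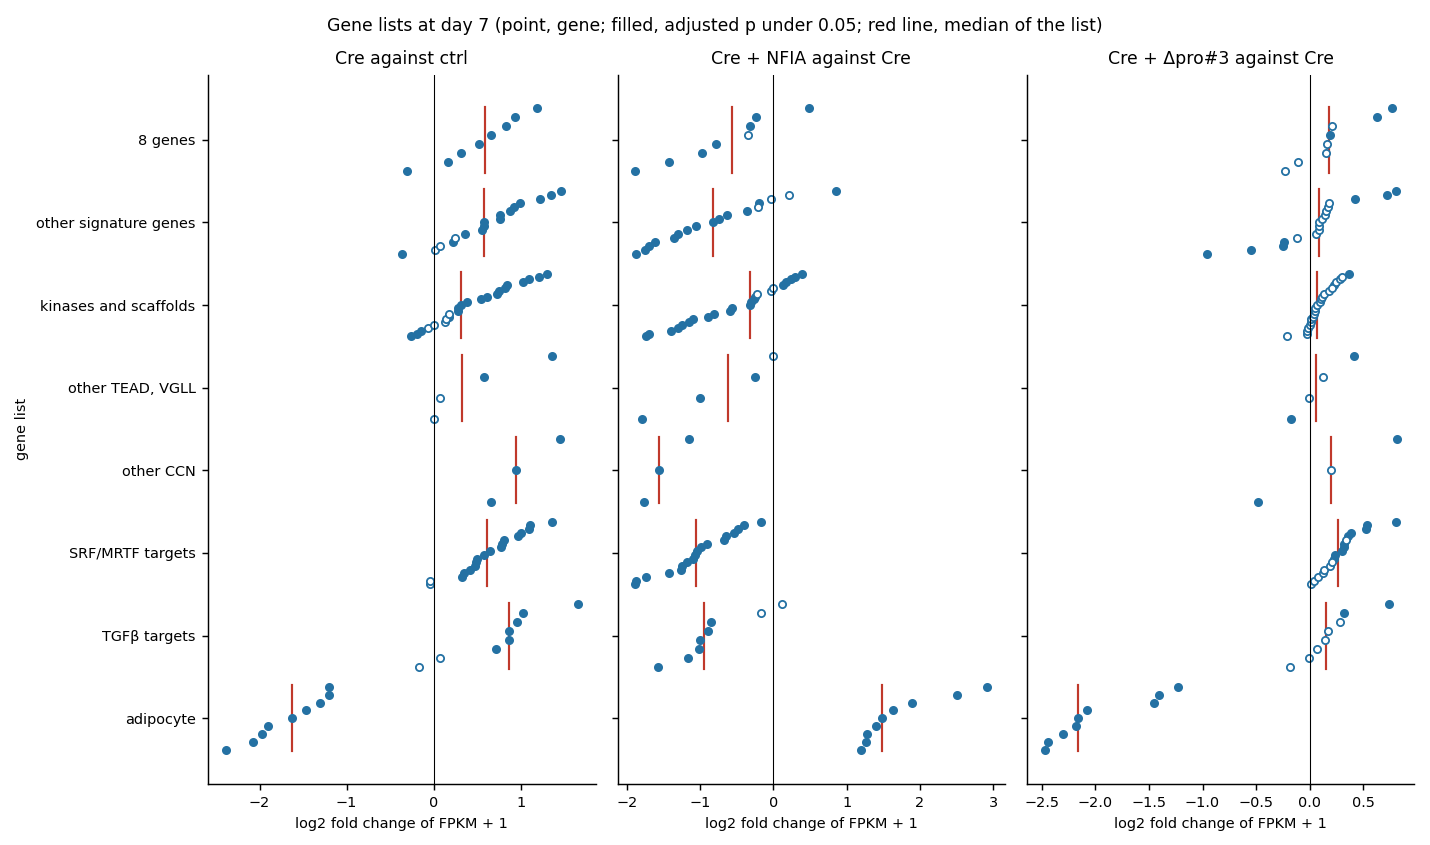
Log2 fold change of FPKM + 1 at day 7 (horizontal axes) for the 8 genes and for the tested genes of 7 lists (vertical axis) in 3 comparisons, 1 point per gene, filled where the adjusted p was under 0.05, with the median of each list as a red line. All 18 genes of the list labelled SRF/MRTF targets, which includes Srf, Mkl1 and Mkl2, lie below 0 with full-length NFIA. The adipocyte list lies on the other side of 0 from the medians of the pathway lists in each panel.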

How the data were processed

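RNA-seq of 24 libraries (8 groups of 3, grouped by the sample labels) was used. Per the authors' methods and the labels, stranded TruSeq libraries were aligned to mm9 with STAR 2.5.3a, reads with a unique position were counted on the matching strand, and values were deposited as FPKM for 24825 genes. All FPKM values corresponded to whole reads (tolerance 0.05 reads), which gave the library totals. Replicate pairs differed by more than counting noise (chi-square per degree of freedom 2.17 to 15.1), so none was merged. Precision is limited by 3 libraries a group. Date-like symbols (26) and repeated symbols (2) were among the rows and include no member.

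Differences were tested with limma 3.58.1 (R 4.3.3, mean-variance trend, two-sided) on log2(FPKM + 1) for the 12640 genes that reached an FPKM of 1 in 3 or more libraries, with Benjamini-Hochberg adjustment over all of them and a threshold of 0.05. The pseudocount makes fold changes of low genes too small. Cultures were compared within a day over its 12 libraries. Days, interactions and neighbours in the order of levels were tested over all 24. A 3-fold change in addition was a second rule. The script was tested on simulated data. All 8 genes are described in each comparison. From each list up to 2 genes with the largest rise and up to 2 with the largest fall, among those that passed without overlap, were named, and paralogues whatever their values. Members and lists were chosen with earlier results of these data known, so they are no independent evidence. Alternatives were a pseudocount of 0.1, no filter, mean FPKM of at least 5, quantile normalization, size factors, a fit of the compared groups alone, a replicate block, limma voom on recovered reads, other fold thresholds and leaving out each library. Promoter sequence is from RefSeq (GRCm38.p6) and was not mixed with mm9 coordinates. Of the 3 genes most like each member, 1 gene is not reported here.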

Additional observations from a re-analysis of the deposited data

Results flagged for a closer look

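These results were flagged because the difference between cultures itself differed between day 7 and day 0 (limma interaction over 24 libraries, day 7 minus day 0, on the log2 scale). For Cre against ctrl the interaction was 0.32 for Yap1 (adjusted p = 0.00201), 0.83 for Tead1 (adjusted p = 5.37e-05), 0.86 for Ctgf (adjusted p = 2.79e-05), 0.96 for Cyr61 (adjusted p = 1.09e-06) and 0.44 for Lats2 (adjusted p = 0.00049).

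For Cre + NFIA against Cre it was 0.58 for Wwtr1 (limma adjusted p = 6.2e-05), -0.81 for Tead1 (adjusted p = 5.87e-05), -1.13 for Ctgf (adjusted p = 8.31e-07) and -0.87 for Cyr61 (adjusted p = 2.51e-06). It was -0.62 for Ankrd1 (adjusted p = 0.00871), -0.38 for Amotl2 (adjusted p = 0.0105) and -0.82 for Lats2 (adjusted p = 3.38e-07). The Ankrd1 difference was 0.27 at day 0 and -0.35 at day 7, and the day 7 value did not pass on its own.

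For Δpro#3 against Cre it was 0.31 for Yap1 (limma adjusted p = 0.0083), 0.91 for Ctgf (adjusted p = 0.00013), 0.72 for Cyr61 (adjusted p = 0.000209) and 0.59 for Ankrd1 (adjusted p = 0.032). Ctgf was lower than in Cre at day 0 (-0.28) and higher at day 7 (0.63). The 3 contrasts share the Cre libraries.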

How the results depend on the processing

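Over 136 member values in 17 comparisons and 1776 alternatives, 1677 kept direction and side of the threshold, 59 lost the call, 27 gained one and 13 changed sign. Of the 86 values that passed, 72 passed in all of these alternatives. The 1776 do not include the fold thresholds, no filter or mean FPKM of at least 5, which were applied to the counts of members below. No sign change was in a value that passed, and the largest of the values with changed sign was 0.0945 in size. Replicate numbers showed no consistent sign of pairing, and the labels do not state any. Over 28 pairs of groups, deviations of same-numbered libraries correlated at -0.306 to 0.218. With the replicate block 1 call was lost (Tead1, Δpro#3, day 7 against day 0, 0.25, limma adjusted p = 0.057) and 1 gained (Tead1, day 7, Cre + NFIA against ctrl, -0.32, adjusted p = 0.0443), and no other call changed. In this paragraph the cause of a change was not tested, and depth limits Ankrd1 most, at 158 reads in its lowest library.

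The number of the 8 genes that passed moved as follows. Requiring a 3-fold change left 0 in each day 0 comparison, in Cre against ctrl, Δpro#3 against Cre and Cre + NFIA against ctrl at day 7, in Cre and Δpro#3 over time and in each interaction. It left 1 in Cre + NFIA against Cre at day 7 and 2 in Δpro#3 against Cre + NFIA at day 7 and in ctrl and Cre + NFIA over time. Requiring a 1.5-fold change left, at day 0, 0 of 1 in Cre against ctrl, 1 of 3 in Cre + NFIA against Cre, 0 of 4 in Δpro#3 against Cre, 0 of 1 between the rescues and 2 of 5 in Cre + NFIA against ctrl. At day 7 it left 4 of 8 in Cre against ctrl, 4 of 7 in Cre + NFIA against Cre and 1 of 2 in Cre + NFIA against ctrl. It left 2 of 6 in Cre and 2 of 6 in Δpro#3 over time and 3 of 5 in the interaction of Cre against ctrl. For Cre against ctrl at day 0 the count was 2 with mean FPKM of at least 5, 2 with voom and 0 with only the groups compared. For Δpro#3 against Cre at day 0 it was 2 with no filter and 1 to 3 with a library left out. For Cre + NFIA against ctrl at day 7 it was 1 with no filter, 4 with voom and 1 to 4 with a library left out.

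Sign changes, as ranges over libraries left out, were at day 0 Yap1 in Cre against ctrl (-0.0488 to 0.0299), Amotl2 (-0.0368 to 0.146) and Lats2 (-0.00314 to 0.0767) in Cre + NFIA against Cre, Amotl2 in Δpro#3 against Cre (-0.106 to 0.0770) and Cyr61 between the rescues (-0.0276 to 0.0847, and -0.0207 with quantile normalization). In the interactions they were Amotl2 for Cre against ctrl (-0.0569 to 0.126, and -0.0945 with size factors), and Wwtr1 (-0.163 to 0.0355) and Amotl2 (-0.183 to 0.000297) for Δpro#3 against Cre.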
